A study of Mus musculus with 12 samples.

Results

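Pulmonary surfactant is made by alveolar type II (AT2) cells, which store its lipids and proteins in lamellar bodies, secretory organelles related to lysosomes, and release them onto the alveolar surface to lower surface tension. The genes described here are the 10 mouse genes Sftpc, Sftpb, Sftpa1, Sftpd, Abca3, Lamp3, Napsa, Slc34a2, Lpcat1 and Muc1, chosen by name as genes of surfactant and lamellar bodies out of 21631 annotated protein-coding genes. For each, the peaks of open chromatin within its locus, that is the gene with 10 kb added at either end, were taken from every library.

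The assay was Omni-ATAC-seq, a transposase-based map of open DNA, on 50000 sorted AT2 cells per library. The cells came from BALB/c mice, 6 to 8 weeks old, 7 days after intravenous injection of 800000 labelled CT26 cells (a colon carcinoma line) or 4T1 cells (a mammary carcinoma line), so every mouse carried tumour cells and no tumour-free mouse is among the groups. In each model AT2 cells were sorted from distal lung and from the niche around metastases, which gave 4 groups (CT26 niche, CT26 distal, 4T1 niche and 4T1 distal) of 3 libraries, each from 5 pooled lungs. The question posed by the design is whether the chromatin of AT2 cells near metastases differs from that of AT2 cells farther away.

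The deposited lists of broad peaks give positions, a fold enrichment and its significance, and no read counts, so the depth is unknown and accessibility is described here as length under peaks. The lists differed in size between groups. They held 51005 to 55529 peaks in CT26 niche, 42067 to 50093 in CT26 distal, 63722 to 66911 in 4T1 niche and 56330 to 58237 in 4T1 distal libraries, and covered 38.2 to 44.7, 31.4 to 34.4, 49.1 to 51.9 and 42.0 to 45.7 Mb in that order. Lengths are given below as deposited. Tests used lengths scaled to the mean total covered length, and the result without scaling is given where it differs. All 8 loci of a list of other AT2 genes, among them Nkx2-1 and Etv5, had a peak in every library, but so did 6 of 6 AT1, 3 of 3 ciliated, 4 of 4 intestinal, 3 of 4 endothelial and 2 of 3 club cell loci, so this does not set AT2 loci apart. The counts were 2 of 7 for leukocyte, 1 of 5 for fibroblast, 1 of 3 for basal cell and 2 of 4 for mammary loci, and loci with no peak in any library included Adgre1, Krt5, Csn2 and Ltf. Peaks covered 12.4% of the AT2 loci on average, against 8.36% of 8 widely expressed loci, 7.56% of the AT1 loci and 1.13% to 6.97% in the other lists. Lists of a sorted population cannot tell a change in every cell from a change in the share of cells that are open at a site.

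All 10 loci were open in every library, with a peak over at least 1 end of the gene in 12 of 12 libraries. For 7 genes whose strand the promoter table gives (Sftpb, Sftpa1, Abca3, Lamp3, Slc34a2, Lpcat1 and Muc1), such a region covered the transcription start. For Lpcat1, the 300 bases around the start were under a peak in full in 9 of 12 libraries. The 300 bases around the start of 4 of them are printed below because this window was under a peak in full in 12 of 12 libraries and holds a match to a motif searched. The sequences are from RefSeq (GRCm38.p6, plus strand, 250 bases before to 50 after the start), and capitals mark the matches. The windows lie at chr14:41131538-41131837 (Sftpa1), chr6:72304360-72304659 (Sftpb), chr3:89228806-89229105 (Muc1) and chr5:53049103-53049402 (Slc34a2).
Sftpa1: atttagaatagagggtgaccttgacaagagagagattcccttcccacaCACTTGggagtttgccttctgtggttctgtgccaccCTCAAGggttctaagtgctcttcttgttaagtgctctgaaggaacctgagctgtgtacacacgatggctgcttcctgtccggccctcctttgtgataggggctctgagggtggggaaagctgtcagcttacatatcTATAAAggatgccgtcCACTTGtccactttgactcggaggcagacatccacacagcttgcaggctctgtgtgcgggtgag
Sftpb: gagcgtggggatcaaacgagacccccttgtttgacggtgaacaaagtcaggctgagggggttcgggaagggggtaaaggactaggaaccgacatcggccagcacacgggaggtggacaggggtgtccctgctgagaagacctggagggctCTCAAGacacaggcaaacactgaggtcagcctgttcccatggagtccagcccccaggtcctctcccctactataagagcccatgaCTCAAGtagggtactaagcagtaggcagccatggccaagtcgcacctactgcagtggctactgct
Muc1: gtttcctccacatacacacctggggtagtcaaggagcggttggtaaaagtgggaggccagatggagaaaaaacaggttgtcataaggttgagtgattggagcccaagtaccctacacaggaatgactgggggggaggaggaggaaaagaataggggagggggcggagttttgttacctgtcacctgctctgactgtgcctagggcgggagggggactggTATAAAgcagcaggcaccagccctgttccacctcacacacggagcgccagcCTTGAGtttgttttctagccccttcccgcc
Slc34a2: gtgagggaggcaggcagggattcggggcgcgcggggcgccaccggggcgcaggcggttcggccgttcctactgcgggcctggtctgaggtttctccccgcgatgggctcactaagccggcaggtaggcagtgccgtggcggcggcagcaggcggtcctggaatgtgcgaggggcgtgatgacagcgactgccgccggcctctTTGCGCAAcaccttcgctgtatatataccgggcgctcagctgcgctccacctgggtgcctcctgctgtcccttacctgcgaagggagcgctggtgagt

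The motifs searched, on both strands, were the core sites CTCAAG and CAAGTG of NKX2-1, the homeodomain factor of lung epithelium, TTNNGCAA of C/EBP factors, AGATAA of GATA factors, and TATAAA, the TATA box. The first, CTCAAG, stood in 3 of 7 windows, against 15.9% of 32851 promoters of the same length. In Sftpb it occurred at -100 and -15 from the start, in Sftpa1 at -166, and in Muc1 on the minus strand at 21. CAAGTG stood in 1 of 7 windows (13.6% of all promoters), that of Sftpa1, at -202 and -14 and on the minus strand both times, where it is printed as its reverse complement. TTNNGCAA stood in 1 of 7 (10.8%), that of Slc34a2 at -48, as a palindrome that matches both strands at 1 site. TATAAA stood in 2 of 7 (13.6%), at -30 in Sftpa1 and -31 in Muc1, and AGATAA in 0 of 7 (11.2%). Overlaps between motifs were allowed, and none of the printed matches overlapped another apart from that palindrome. A match is a run of letters and was not tested as a binding site.

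The share of each locus under peaks was above that of the median locus. Averaged over 12 libraries, 25.7% of the Sftpc locus and 19.5% of the Muc1 locus lay under peaks. Percentiles were taken among the 16823 loci tested, a set that leaves out those under peaks in fewer than 3 libraries. Sftpc stood at the 99.9th and Muc1 at the 99.5th percentile of that set. Slc34a2 (14.7%), Napsa (14.6%), Sftpb (13.9%), Sftpd (11.4%) and Sftpa1 (10.3%) followed, then Lpcat1 (9.07%), Abca3 (7.85%) and Lamp3 (6.91%). Their percentiles were 97.1 for Slc34a2, 96.9 for Napsa, 96.2 for Sftpb, 91.9 for Sftpd, 88.9 for Sftpa1, 83.7 for Lpcat1, 77.8 for Abca3 and 71.7 for Lamp3. The median of these 16823 loci was 4.42%, and the median of the 10 was 12.6%. The members are not a random set and differ in length, the flanks being most of a short locus such as Sftpc (3141 bp of gene in 23.1 kb) and less than the gene in Abca3 (58284 bp), so this order is a description with no test. Most of the length under peaks at the Sftpc locus lay in neighbouring genes. Its regions in Bmp1 averaged 1556, 894 and 92.3 bp over the 12 libraries, and that in Lgi3 averaged 1913 bp. The region over an end of Sftpc itself averaged 882 bp, and a further flanking region 611 bp.

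Fold enrichment, the peak caller's ratio of a peak over its background, gave another order. Peaks were ranked within each library, 100 being the highest. The most enriched peak of the Napsa locus lay at percentiles 83.1 to 98.9, that of Lamp3 at 83.4 to 96.0 and that of Sftpa1 at 78.4 to 90.8. The most enriched peak of Sftpc lay at only 22.5 to 54.5 and that of Muc1 at 8.40 to 29.2. Over the same 16823 loci the median of this rank was 83.1, and over the 10 members it was 73.3. Of 16823 loci, 5 others covered as large a share as Sftpc with as low a rank, and 2 others did so for Muc1.

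**Figure D1:**
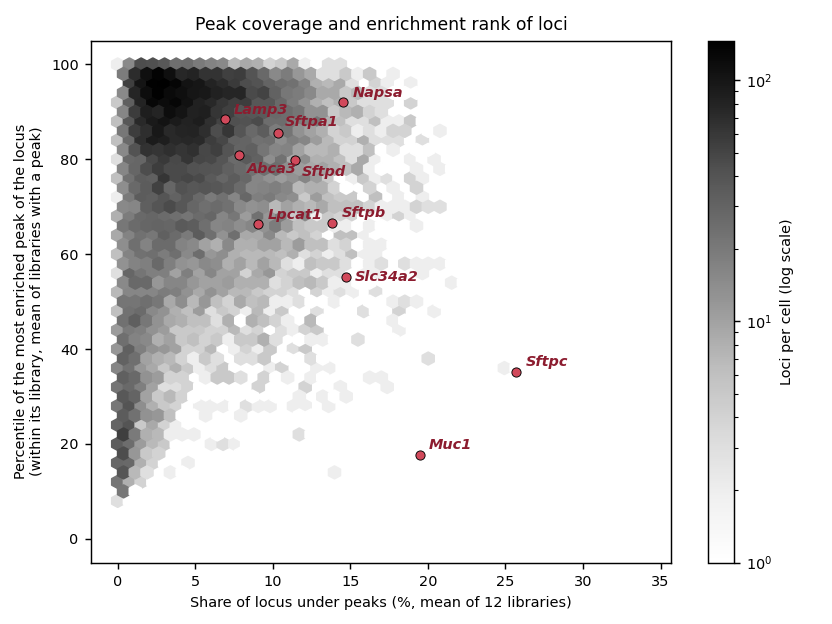
Each hexagon counts loci (grey, log scale) by the mean share of the locus under peaks in percent (x axis) and the mean percentile of its most enriched peak (y axis). The 10 named loci are red points. Sftpc, at 25.7% and 35.2, and Muc1, at 19.5% and 17.8, lie at the lower right, apart from most loci, whereas Napsa lies at 14.6% and 92.1.

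Length and significance ranked these peaks differently from enrichment. The length of the peak over the Muc1 start lay at percentiles 98.5 to 99.5 of the peaks of its library, its -log10 p at 64.1 to 83.3, and its fold enrichment at 5.80 to 23.1. For the peak at the higher-coordinate end of Sftpc, the -log10 p lay at percentiles 73.0 to 88.5. For the peak over the Sftpb start, length lay at 91.4 to 95.9, -log10 p at 94.2 to 98.9 and enrichment at 57.4 to 75.1. Across all peaks of a library, length and enrichment were positively correlated, with Spearman's rho of 0.294 to 0.404 in the 12 libraries, and length and -log10 p with 0.489 to 0.562. These are correlations across peaks, which are not independent replicates.

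Merging the peaks of all libraries gave 89 regions in the 10 loci. Of these, 37 (41.6%) were present in all 12 libraries and 25 (28.1%) in a single library, against 42.1% and 15.3% of all 83727 merged regions. Muc1 had 5 regions, all 5 in every library, and Sftpc 6, of which 5 were in every library. Lpcat1, by contrast, had 18 regions, of which 2 were in every library and 5 in a single library, and Abca3 and Lamp3 had 15 each, with 4 and 3 in every library. Several shared regions sit in or at neighbouring genes. In the Sftpc locus, 3 lie in Bmp1 and 1 in Lgi3. In the Muc1 locus, 1 lies in Thbs3 and 2 in Trim46, of which 1 also reaches Krtcap2. The region over the Abca3 start also holds an end of Abca17.

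**Figure D2:**
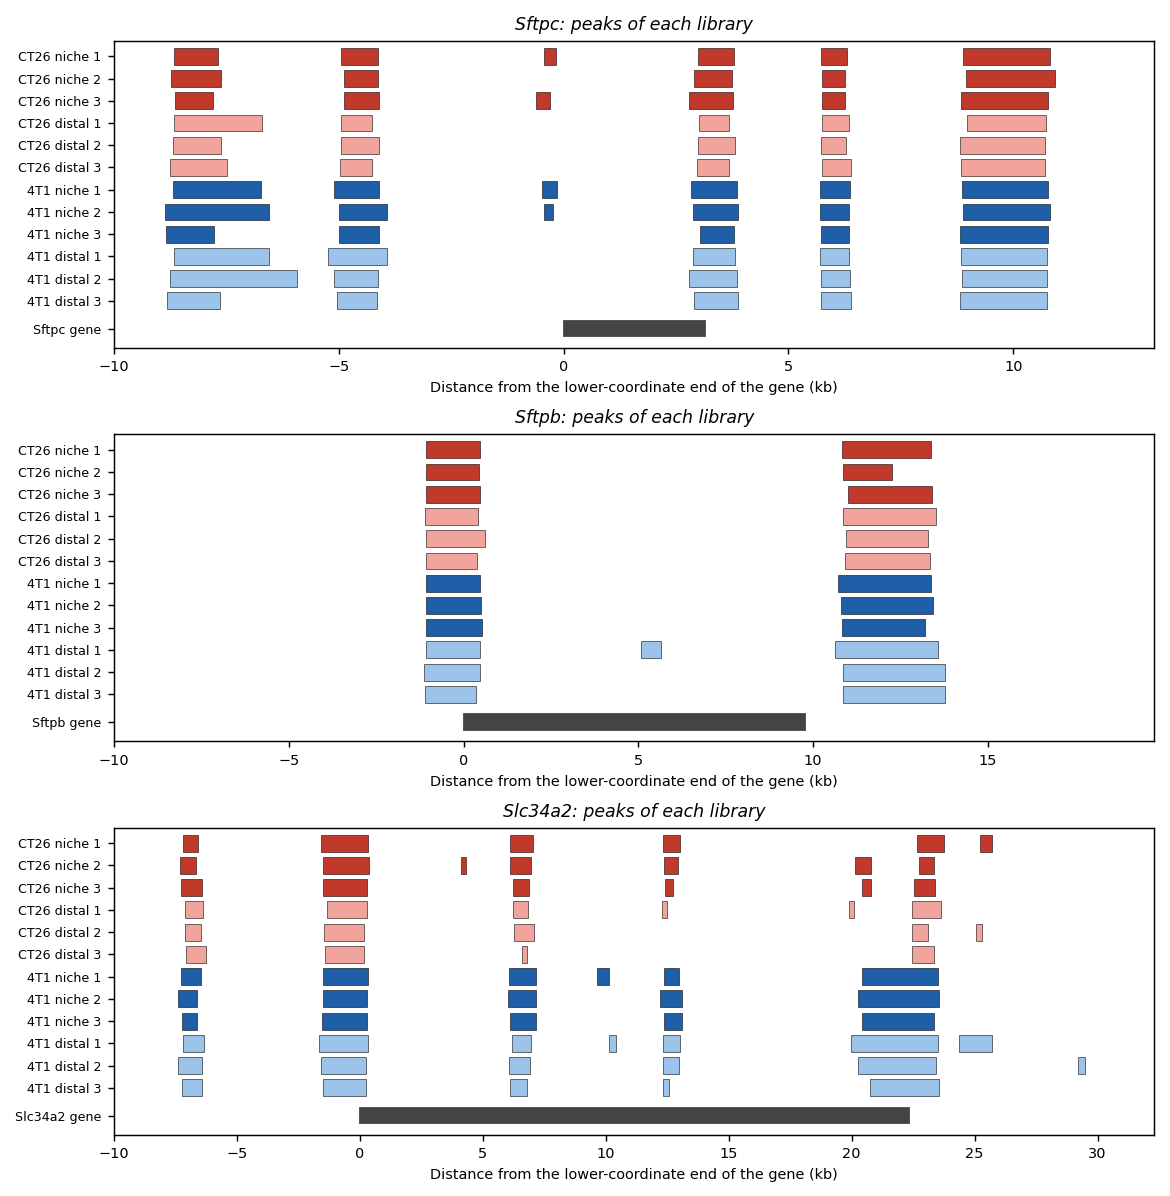
Each bar is a peak in 1 library (rows, coloured by group), placed by its distance in kb from the lower-coordinate end of the gene, and the dark bar is the gene. The peaks of Sftpc and Sftpb recur in 12 of 12 libraries apart from a small peak just before the lower-coordinate end of Sftpc and 1 inside Sftpb, whereas the peak at the right end of Slc34a2 is a single long block in 4T1 libraries and shorter in CT26 libraries.

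Among the hydrophobic surfactant proteins, SP-B (Sftpb), which is needed to form lamellar bodies and surface films, was the only member called between niche and distal lung. Its locus had 4.10, 2.94 and 3.95 kb under peaks in CT26 niche libraries, against 4.14, 4.04 and 3.87 kb in CT26 distal libraries. In the 4T1 model it had 4.24, 4.22 and 3.99 kb in niche libraries, against 5.08, 4.53 and 4.37 kb in distal libraries. The 4T1 niche values all lay below the 4T1 distal ones, while the CT26 values overlapped. After scaling, the locus averaged 3.82 ± 0.56 kb in CT26 niche and 5.12 ± 0.35 kb in CT26 distal libraries, and 3.44 ± 0.01 kb in 4T1 niche and 4.44 ± 0.30 kb in 4T1 distal libraries (SD, n = 3 each). Over both models the log2 change of Sftpb was -0.36 (SE 0.07, limma adjusted p = 0.0249), the 1 of 10 members called, against 2.38% of all loci tested. Within a model it was not called (log2 change -0.39, limma adjusted p = 0.0814 in CT26 and -0.33, adjusted p = 0.169 in 4T1).

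That call was not kept under several alternatives. Without scaling the change was -0.14 (limma adjusted p = 0.172), and with a scaling to the median locus it was -0.31 (adjusted p = 0.0412). With peaks of -log10 q of at least 5 it turned to 0.06 (adjusted p = 0.797). Keeping equally many peaks per library gave -0.22 (adjusted p = 0.111), with 2 kb flanks -0.23 (adjusted p = 0.0776), with 50 kb flanks -0.14 (adjusted p = 0.152) and with the gene body only -0.17 (adjusted p = 0.425). Leaving out CT26 niche replicate 1 gave an adjusted p of 0.0511, leaving out 4T1 niche replicate 1, 2 or 3 gave 0.0535, 0.0645 and 0.0607, and leaving out 4T1 distal replicate 1 or 3 gave 0.0545 and 0.0535, with log2 changes of -0.36 to -0.33. Of the separate regions of Sftpb, the peak over the start was 1437 to 1676 bp long in the 12 libraries. The region beyond the gene, at chr6:72315233-72318379, had 2544, 1416 and 2400 bp in CT26 niche and 2643, 2364 and 2432 bp in CT26 distal libraries. In 4T1 mice that region had 2686, 2637 and 2393 bp in niche and 2947, 2908 and 2900 bp in distal libraries. It was called lower over both models (log2 change -0.43, SE 0.11, limma adjusted p = 0.029), and not without scaling (-0.21, adjusted p = 0.325) or with median scaling (-0.31, adjusted p = 0.157), and its call was lost in 7 of 12 fits that left out a library, with adjusted p up to 0.0875 without 4T1 niche replicate 2.

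SP-C (Sftpc), the AT2-specific hydrophobic peptide, had 5.42, 5.24 and 5.32 kb under peaks in CT26 niche and 5.67, 5.19 and 5.22 kb in CT26 distal libraries. For 4T1 tumours, the Sftpc locus had 6.88, 7.17 and 5.28 kb in niche and 6.89, 7.43 and 5.67 kb in distal libraries. Niche and distal values overlapped in both models, and the log2 change over both was -0.25 (SE 0.07, limma adjusted p = 0.0686). The region over its higher-coordinate end, chr14:70523734-70524824, had 812, 848 and 964 bp in CT26 niche and 665, 838 and 731 bp in CT26 distal libraries, and 1012, 997 and 754 bp in 4T1 niche and 923, 1061 and 982 bp in 4T1 distal libraries. A small region 158 bp beyond the lower-coordinate end of Sftpc, where Bmp1 also ends, was held by 2 of 3 CT26 niche and 0 of 3 CT26 distal libraries, and by 2 of 3 4T1 niche and 0 of 3 4T1 distal libraries.

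The collectins SP-A (Sftpa1) and SP-D (Sftpd), soluble lectins that bind microbes, both lie on chromosome 14. Sftpa1 had 2.29, 1.94 and 1.92 kb in CT26 niche and 1.74, 2.51 and 1.91 kb in CT26 distal libraries, and 3.01, 3.17 and 3.10 kb in 4T1 niche and 2.77, 3.08 and 3.03 kb in 4T1 distal libraries. All 6 CT26 values were below all 6 4T1 values, while niche and distal overlapped in both models (log2 change over both -0.17, SE 0.08, limma adjusted p = 0.225). Sftpd had 3.76, 3.62 and 3.36 kb in CT26 niche and 2.00, 4.38 and 2.72 kb in CT26 distal libraries, where the distal libraries differed by over 2-fold among themselves. Among 4T1 samples, Sftpd had 4.36, 4.85 and 4.72 kb in niche libraries, all above the 3.98, 4.00 and 3.43 kb in distal libraries. The change over both models was 0.05 on the log2 scale (SE 0.14, limma adjusted p = 0.866).

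Of the lipid handling genes, Lpcat1, the acyltransferase that makes the dipalmitoyl lecithin of surfactant, had the largest positive change between the sites, which did not pass the test. Its locus had 6.19, 3.21 and 7.01 kb in CT26 niche and 2.63, 2.92 and 3.75 kb in CT26 distal libraries. In mice with 4T1 cells, Lpcat1 had 9.87, 10.2 and 9.79 kb in niche and 7.43, 7.39 and 4.95 kb in distal libraries, with no overlap. In CT26 the groups overlapped through niche replicate 2. The scaled log2 change over both models was 0.41 (SE 0.15, limma adjusted p = 0.133), and it passed the threshold without scaling (0.63, adjusted p = 0.0244) and without CT26 niche replicate 2 (0.55, adjusted p = 0.039). The region over the Lpcat1 start had 906, 1014 and 774 bp in CT26 niche and 677, 906 and 722 bp in CT26 distal libraries. It had 910, 1133 and 891 bp in 4T1 niche and 812, 1342 and 1239 bp in 4T1 distal libraries. Niche and distal values of this region overlapped in both models. Inside the gene, the region chr13:73473724-73477581 had 1504, 238 and 1784 bp in CT26 niche and 0, 667 and 484 bp in CT26 distal libraries, and 2039, 2508 and 2422 bp in 4T1 niche and 1190, 564 and 871 bp in 4T1 distal libraries. It was not called (limma adjusted p = 0.167 over both models), and its enrichment was low, at percentiles 0.60 to 8.10. When each list was reduced to its 42067 most significant peaks, the change of the Lpcat1 locus was -0.19 (adjusted p = 0.746).

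Abca3, the transporter that loads phospholipid into lamellar bodies, had 6.39, 5.49 and 5.24 kb in CT26 niche and 4.69, 5.70 and 4.01 kb in CT26 distal libraries, and 6.56, 8.37 and 6.55 kb in 4T1 niche and 6.45, 7.61 and 6.69 kb in 4T1 distal libraries. Niche and distal overlapped in both models, and the log2 change over both was -0.09 (SE 0.09, limma adjusted p = 0.599). The peak over its start was the only region of the 59 tested that was called within a single model. It had 1608, 1447 and 1457 bp in CT26 niche and 1576, 1404 and 1634 bp in CT26 distal libraries, which overlap as deposited. Scaled, its log2 change in CT26 was -0.28 (SE 0.06, limma adjusted p = 0.026), and over both models -0.21 with scaling and 0.00 without (adjusted p = 0.0112 and 0.988). Leaving out 4T1 niche replicate 1, 2 or 3 gave adjusted p of 0.0612, 0.0664 and 0.0637 over both models.

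Slc34a2, the apical sodium-phosphate cotransporter of AT2 cells, had 5.72, 5.41 and 4.86 kb in CT26 niche libraries, all above the 4.53, 4.06 and 3.50 kb in CT26 distal libraries. In the other model, 4T1, Slc34a2 had 7.99, 7.85 and 7.16 kb in niche and 9.40, 7.84 and 6.31 kb in distal libraries, which overlap. Its change over both models was -0.05 on the log2 scale (SE 0.08, limma adjusted p = 0.758), and 0.18 without scaling (adjusted p = 0.169). A region inside the gene, chr5:53061546-53062435, had 679, 593 and 320 bp in CT26 niche and 192, 0 and 0 bp in CT26 distal libraries, and 638, 890 and 707 bp in 4T1 niche and 657, 667 and 252 bp in 4T1 distal libraries. It was the only member region called higher in niche cells over both models, with scaling (log2 change 0.89, SE 0.25, limma adjusted p = 0.0495) and without (0.97, adjusted p = 0.0438), but not with median scaling (0.87, adjusted p = 0.0718). Its call was lost in 10 of the 12 fits that left out a library, with adjusted p up to 0.125 without 4T1 niche replicate 2.

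Lamp3 and Napsa are proteins of the lamellar body itself. Lamp3, a glycoprotein of the lamellar body membrane, had 4.44, 3.90 and 4.10 kb in CT26 niche and 3.90, 3.39 and 3.62 kb in CT26 distal libraries, where the lowest niche value lay just above the highest distal value. In the 4T1 model Lamp3 had 7.55, 6.39 and 6.43 kb in niche and 5.40, 6.89 and 4.50 kb in distal libraries. The log2 change over both models was 0.00 (SE 0.07, limma adjusted p = 0.999). The peak over the Lamp3 start, chr16:19705835-19708545 on the minus strand, had 1534, 1458 and 1496 bp in CT26 niche and 1458, 1484 and 1522 bp in CT26 distal libraries. In 4T1 mice it was longer in niche libraries, with 2440, 1760 and 2331 bp, than in distal libraries, with 1567, 1634 and 1413 bp. It passed the test in 4T1 without scaling (log2 change 0.44, limma adjusted p = 0.0389) and not with it (0.26, adjusted p = 0.314), and the difference between the models was not called (-0.50, adjusted p = 0.2).

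Napsa, the aspartic protease that cleaves the SP-B precursor, had 5.62, 5.46 and 5.48 kb in CT26 niche libraries, all above the 3.25, 4.12 and 3.54 kb in CT26 distal libraries. For 4T1 tumours, Napsa had 6.90, 6.71 and 4.70 kb in niche and 4.38, 5.89 and 4.01 kb in distal libraries. The scaled log2 change over both models was 0.22 (SE 0.10, limma adjusted p = 0.213), and 0.44 without scaling (adjusted p = 0.0191). The region over its lower-coordinate end had 489, 1571 and 1643 bp in CT26 niche and 446, 476 and 723 bp in CT26 distal libraries, and 1732, 1684 and 882 bp in 4T1 niche and 490, 1679 and 595 bp in 4T1 distal libraries. Its fold enrichment was 2.85 to 3.72 in the 5 libraries where it was longest, at 1571 bp or more, and 3.50 to 4.76 in the other 7. Muc1, a transmembrane mucin of the apical surface, had 4.77, 4.04 and 3.90 kb in CT26 niche and 4.89, 3.96 and 4.39 kb in CT26 distal libraries, and 5.73, 5.50 and 4.59 kb in 4T1 niche and 4.96, 5.64 and 4.48 kb in 4T1 distal libraries, with overlap in both models. The log2 change of Muc1 over both models was -0.22 with scaling (SE 0.06, limma adjusted p = 0.062) and 0.00 without (adjusted p = 0.964).

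**Figure D3:**
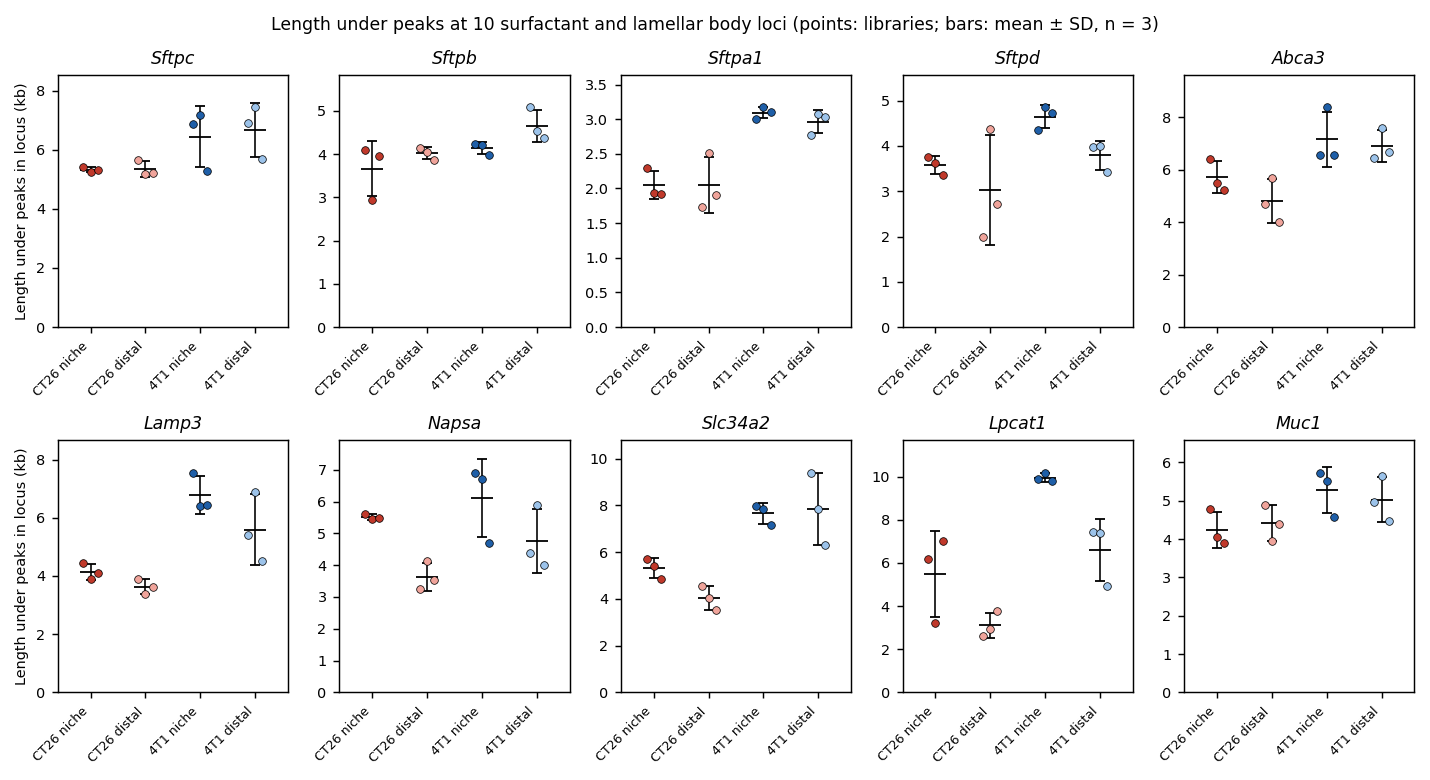
Points are the length under peaks in kb at each locus in each library, by group, with the mean and SD (n = 3) as bars. The 3 Lpcat1 values of 4T1 niche lie at 9.79 to 10.2 kb, above the 4.95 to 7.43 kb of 4T1 distal, and the 3 Sftpb values of 4T1 niche lie below those of 4T1 distal.

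Counted over the 10 loci, 0 were called in CT26 alone (0.672% of all loci tested), 0 in 4T1 alone (0.624%) and 1 over both models (2.38%). At an unadjusted p under 0.05 the counts were 3, 2 and 4, against 19.0%, 13.4% and 24.8% of all loci in the same order. The niche effect in CT26 minus that in 4T1 was called for 0 of 10 (0.0594% of all loci), lay between -0.19 and 0.32 on the log2 scale, and reached p under 0.05 unadjusted for 0 (8.81% of all loci). Over both models 4 members had a positive and 6 a negative change, with a median of -0.07, against -0.04 for all loci. Without scaling, all loci shifted to a median of 0.15, and 2 members were called over both models (Lpcat1 and Napsa, both higher, against 23.7% of all loci) and 1 in CT26 (Napsa, against 2027 of 16823 loci). With median scaling 1 was called (Sftpb, against 2.13%). Leaving out CT26 niche replicate 2 gave 2 calls over both models, against 187 higher and 72 lower of 16800 loci.

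As deposited, niche lengths did not overlap distal lengths for 3 loci in CT26 (Lamp3, Napsa and Slc34a2, all higher), against 33.9% of all loci, and for 3 in 4T1 (Sftpd and Lpcat1 higher, Sftpb lower), against 28.4%. For Lamp3 in CT26 the lowest niche length was 3904 bp and the highest distal length 3903 bp, and the scaled log2 change was -0.08. Higher lengths in niche cells were common, at 33.5% of all loci in CT26 and 27.5% in 4T1, whereas lower ones, as for Sftpb, made up 0.915% in 4T1. Over both models 0 members were free of overlap, against 1.72% of all loci.

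Among the 59 regions present in at least 3 libraries, 1 was called in CT26 (2.51% of all regions tested), 0 in 4T1 (2.75%) and 7 over both models (10.6%), 6 of them lower in niche cells. The 6 lay in the loci of Muc1, Sftpb, Sftpa1, Sftpc, Lamp3 and Abca3, with scaled log2 changes of -0.43 to -0.16. Those of Sftpb, Sftpc and Sftpa1 lay 860, 2559 and 9322 bp beyond the gene. As deposited, the Muc1 region averaged longer in niche in both models (2254 against 2235 bp in CT26, 2379 against 2309 bp in 4T1). So did that of Sftpa1 in CT26 (1996 against 1760 bp) and that of Abca3 in 4T1 (1625 against 1586 bp), but not in the other model. Those of Sftpb, Sftpc and Lamp3 averaged shorter in both. With median scaling 0 of the 7 were called (4.48% of all regions), and without scaling only the Slc34a2 region was (6.45%). Unscaled, 2 regions were called in CT26 (in Slc34a2 and Lamp3, 2.85% of all) and 1 in 4T1 (the Lamp3 start, 3.27%). Over both models, 0 regions were called without any 1 of the 4T1 niche replicates, 1 without 4T1 distal replicate 3, and 3 without CT26 distal replicate 2 or 4T1 distal replicate 1. Calls among all regions fell too, from 3191 higher and 3695 lower of 64948. Without 4T1 niche replicate 1, 2 or 3 they were 277, 273 and 296 higher and 67, 74 and 87 lower, of 61913, 62486 and 62351. Without 4T1 distal replicate 3 they were 2551 and 1092. Without CT26 distal replicate 2 they were 2704 and 1843, and without 4T1 distal replicate 1, 2916 and 2096. In CT26, 0 were called without CT26 niche replicate 1 or 4T1 niche replicate 1 or 2, and 2 without CT26 distal replicate 1 or 2 or 4T1 distal replicate 3. In the same order, 829, 928, 946, 1574, 1195 and 1165 of all regions were called higher, and 276, 226, 248, 451, 324 and 364 lower. In 4T1, 1 was called without CT26 niche replicate 2 or 4T1 distal replicate 2, where 1823 and 1639 of all regions were called higher and 139 and 79 lower. No member region was held by all distal and no niche libraries of a model. In 4T1, 2 of 89 (2.25%) were held by all niche and no distal libraries, small regions inside Napsa and Lpcat1 of at most 404 bp, against 2.59% of all regions. In CT26 there were 0, against 1.56%.

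Summed lengths of marker loci are given as deposited, without scaling, and the peak lists themselves were longer in niche than in distal libraries of each model. The summed length of 5 fibroblast loci was 5.99 to 10.4 kb in CT26 niche and 3.30 to 4.86 kb in CT26 distal libraries, and 8.20 to 8.99 kb in 4T1 niche and 4.49 to 7.03 kb in 4T1 distal libraries, with a peak in all libraries at 1 of the 5. For 6 AT1 loci, all with a peak in every library, it was 19.4 to 24.0 and 14.8 to 16.9 kb in CT26 niche and distal, and 22.9 to 26.7 and 19.9 to 22.0 kb in 4T1 niche and distal. For 8 widely expressed loci it was 20.4 to 22.1 and 18.9 to 19.6 kb in CT26 niche and distal, and 23.7 to 25.2 and 21.3 to 22.5 kb in 4T1 niche and distal. In these 3 lists the sites did not overlap in either model, whereas the sums of AT2, club, ciliated, basal, leukocyte, mammary and intestinal loci overlapped in both models. The sums of 4 endothelial loci overlapped in CT26 and not in 4T1, with 10.4 to 13.2 kb in 4T1 niche and 7.26 to 7.91 kb in 4T1 distal libraries. The part of these lists in the results on the surfactant loci was not tested.

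More members were called between the models than between the sites, as were more of all loci (24.1% against 2.38% over both models). Relative to 4T1, CT26 samples had less length under peaks at Lpcat1 (log2 change -0.58, SE 0.15, limma adjusted p = 0.021), Slc34a2 (-0.34, SE 0.08, adjusted p = 0.0167) and Lamp3 (-0.26, SE 0.07, adjusted p = 0.0287). These 3 of 10 called stood against 24.1% of all loci, of which 3229 were higher and 822 lower in CT26, with a median of 0.08. Without scaling 7 members were called, all lower in CT26, against 46.4% of all loci and a median of -0.21, and with median scaling 4 were called, all lower, against 15.0%. As deposited, the CT26 lengths of Sftpa1, Abca3, Lamp3 and Slc34a2 lay below every 4T1 length, which held for 7.41% of all loci (7.42% in either direction). With lists of 42067 peaks each, 0 members were called, against 94 of 16060 loci, and Lpcat1 and Lamp3 changed by 0.26 and 0.08. Leaving out CT26 niche replicate 2, CT26 distal replicate 2 or 3, or 4T1 niche replicate 1 or 3 took the call from Lamp3, with adjusted p of 0.0503 to 0.0673.

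**Figure D4:**
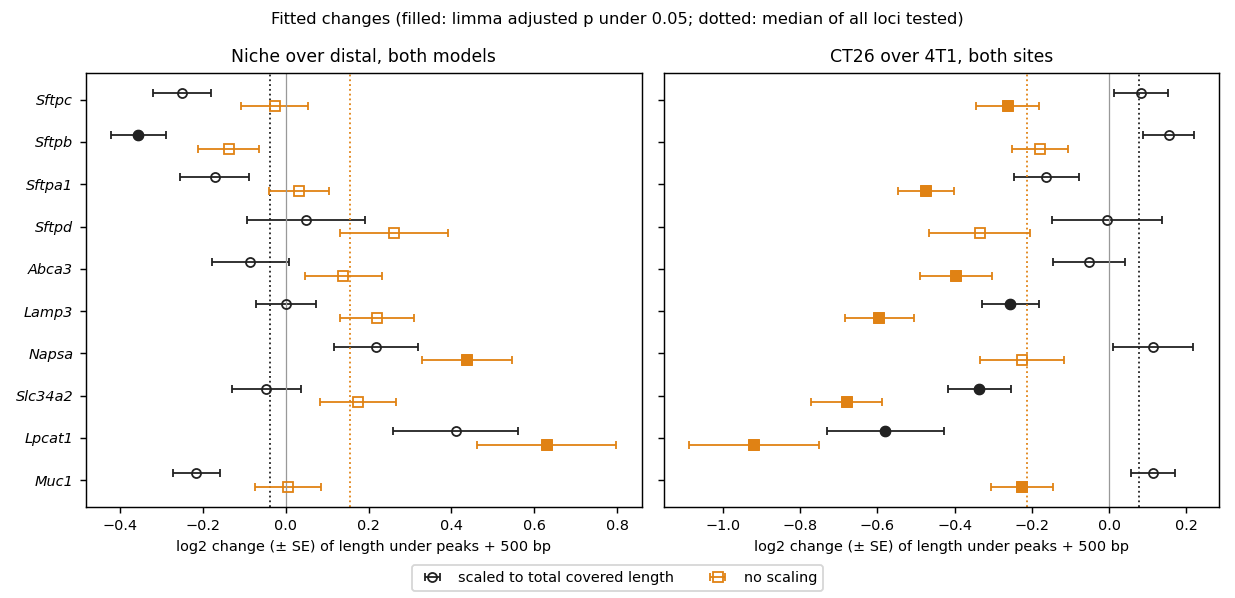
Points are log2 changes of length under peaks (500 bp added) with SE for the 10 loci, niche over distal (left) and CT26 over 4T1 (right), with scaling to total covered length (black circles) and without (orange squares). Filled symbols passed the test, and dotted lines mark the median of all loci, which lies at -0.04 with and 0.15 without scaling on the left, and at 0.08 with and -0.21 without scaling on the right.

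Single regions were called between the models at about the share of all regions, 15 of 59 against 25.0%. Those lower in CT26 are described first. The region over the far end of Slc34a2, chr5:53069241-53073117, had 1098, 1245 and 1227 bp in CT26 niche and 1341, 648 and 889 bp in CT26 distal libraries. In 4T1 it had 3119, 3273 and 2949 bp in niche and 3540, 3158 and 2807 bp in distal libraries, so that every 4T1 value was more than 2-fold the highest CT26 value. Its log2 change was -1.08 (SE 0.12, limma adjusted p = 0.00103). The fold enrichment of its peaks was low in both models, at percentiles 0.80 to 6.20. Just beyond Sftpa1, chr14:41136714-41138447 had 689, 499 and 484 bp in CT26 niche and 411, 1221 and 600 bp in CT26 distal libraries, against 1501, 1579 and 1682 bp in 4T1 niche and 1400, 1609 and 1527 bp in 4T1 distal libraries (log2 change -0.79, SE 0.19, limma adjusted p = 0.012).

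A region beyond the end of Lamp3, chr16:19651002-19652720, had no peak in any CT26 library, 867, 384 and 1412 bp in 4T1 niche and 0, 814 and 226 bp in 4T1 distal libraries (log2 change -1.62, SE 0.36, limma adjusted p = 0.00932). A short region inside Abca3, chr17:24383590-24384058, also had none in CT26, 316, 293 and 208 bp in 4T1 niche and 0, 197 and 347 bp in 4T1 distal libraries (log2 change -0.94, SE 0.22, limma adjusted p = 0.011). These 4 were called under all 3 scalings. Another lower region, inside Lamp3, was called with scaling to total length (-1.19, adjusted p = 0.0369) and not with median scaling (-1.14, adjusted p = 0.0862), and lost its call in 10 of 12 fits that left out a library. In all, 15 of 59 regions were called, 10 higher and 5 lower in CT26, against 25.0% of all regions. Without scaling 11 were called, all lower in CT26 (13.2% of all), and with median scaling only those 4 were (7.09%). With 42067 peaks in each list 0 were called, against 485 higher and 765 lower of 47896 regions. The region at the far end of Slc34a2 then changed by -0.69 (limma adjusted p = 0.701). The 10 higher regions included the peaks over the starts of Sftpb, Sftpa1, Muc1, Slc34a2 and Abca3, with log2 changes of 0.26 to 0.31, and 0 of them were called higher without scaling. In 3 or more 4T1 and no CT26 libraries stood 4 of 89 member regions (4.49%), against 5.03% of all regions, and the opposite was true of 0.

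**Figure D5:**
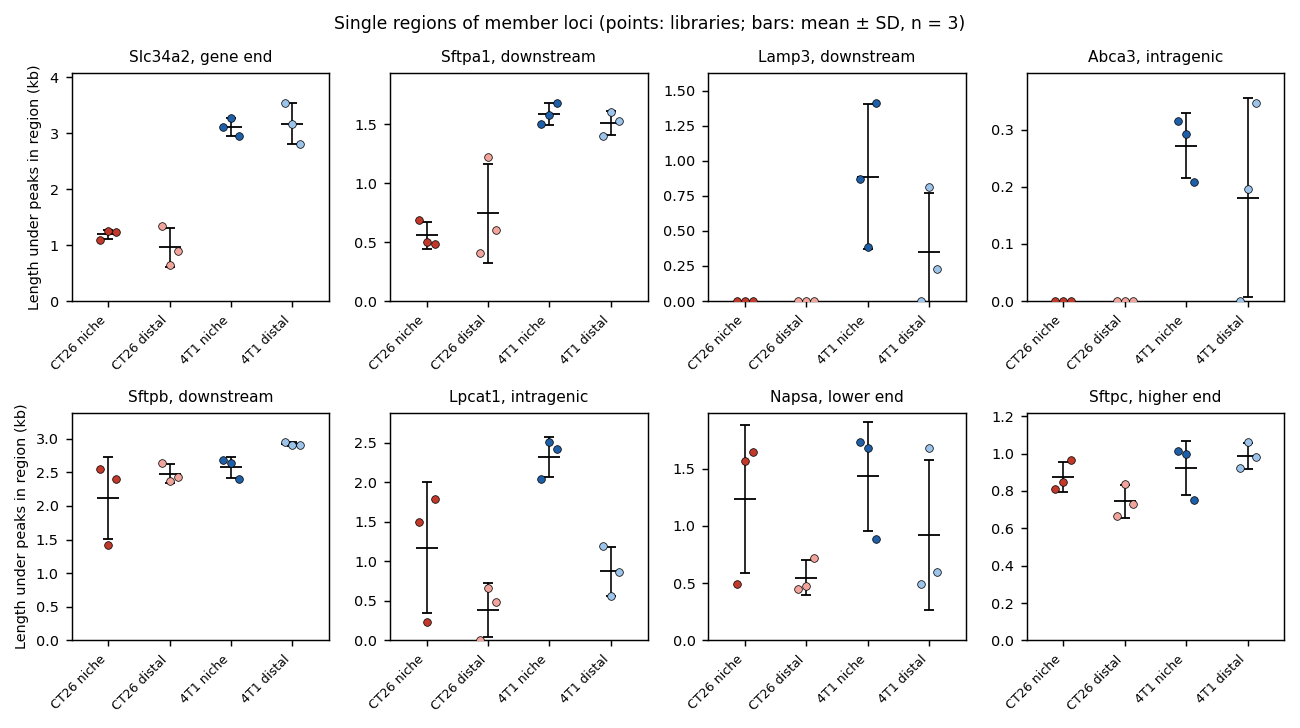
Points are the length under peaks in kb in 8 single regions in each library, by group, with the mean and SD (n = 3) as bars. The Slc34a2 region lies at 0.65 to 1.34 kb in the 6 CT26 libraries and at 2.81 to 3.54 kb in the 6 4T1 libraries, while the region inside Lpcat1 is longer in 4T1 niche than in 4T1 distal libraries.

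A list of 15 other genes of surfactant processing and lysosome-related organelles, all 15 tested, had 0 calls between the sites in CT26 (0.672% of all loci), in 4T1 (0.624%) and over both models (2.38%). The most positive change over both was that of Hps4, a subunit of a complex in lysosome-related organelle formation, with 1.35 ± 0.16 kb in CT26 niche and 0.83 ± 0.18 kb in CT26 distal libraries, and 1.92 ± 0.21 kb in 4T1 niche and 1.16 ± 0.19 kb in 4T1 distal libraries (SD, n = 3 each). Its log2 change was 0.34 (limma adjusted p = 0.0568), and the most negative was that of Lyz2, a lysozyme, at -0.37 (adjusted p = 0.28). Between models 3 of the 15 were called, against 24.1% of all loci. Hps1 (log2 change 0.17, adjusted p = 0.0261) and Hps6 (0.26, adjusted p = 0.00982) were higher in CT26. Ap3b1, a subunit of the adaptor that sorts cargo to these organelles, was lower in CT26 (-0.33, limma adjusted p = 0.0186). The median of the list was -0.02 over both models and 0.02 between models.

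Averaged over the 10 members, the scaled and centred log2 length lay between -0.12 and 0.14 in CT26 and between -0.04 and 0.16 in 4T1 libraries. Among the loci whose 12 values followed this mean most closely were Itgb8 (Pearson's r = 0.97), Cgref1 (0.867), Mrpl39 (0.838) and Anapc11 (0.836). The 12 values share the scaling of their libraries, and r is given as a description.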

How the data were processed

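Omni-ATAC-seq peaks of 12 libraries (4 groups of 3) were used as the authors deposited them, 1 list per library, in GRCm38 coordinates. Per the submitters' processing notes, MACS2 and bedtools were used; versions, settings and aligner: not given in the sources used here. Columns deposited by the authors are peak positions in bp, a fold enrichment (a ratio within the library) and −log10 p and −log10 q, none with −log10 q under 1. No read counts were used, so depth is unknown and no interval was computed.

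For 21631 RefSeq protein-coding genes (GRCm38.p6), the length under peaks (overlap of at least 1 bp) within the gene and 10 kb each side was scaled to the mean total covered length, 500 bp was added and log2 taken. Loci under a peak in 3 or more libraries (16823) were fitted with limma 3.58.1 (R 4.3.3; 4 group means, 8 residual degrees of freedom, trended variance). Regions were merged peaks (64948 tested, 200 bp added). Benjamini-Hochberg adjustment ran over all loci or regions, and calls are at 0.05. The model was tested on simulated independent normal values with planted changes, which does not show how it performs on the lengths used here. Enrichment percentiles within a library (0 to 100) are descriptive. All 10 members and every region were eligible to be named; of the 15 other genes, those called and the most positive and most negative change over both models. Members and lists were chosen with earlier results of these data known. Alternatives varied scaling, added length, peak threshold, locus width, filter, libraries and a replicate block. RefSeq promoters matched 7 of 10 members by symbol; no promoter sequence was used for Sftpc, Sftpd and Napsa. Some neighbouring, marker and similar loci are not reported here.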

Additional observations from a re-analysis of the deposited data

How the results depend on the processing

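Directions and calls at these loci changed with scaling, with the peaks kept, with locus width and with single libraries left out, and the cause was not tested. Without scaling, 1 locus was called in CT26, 2 over both models and 7 between models, and 1 region in 4T1, 2 in CT26 and 1 over both. With median scaling 0 regions were called in CT26, 0 over both and 4 between models. Of all 64948 regions, 950 were then higher and 128 lower in CT26, 2652 and 259 over both, and 577 and 4028 between models. With −log10 q of at least 5, 0 loci and 3 regions were called over both models. Of all 15659 loci 155 were higher and 37 lower, and of all 41797 regions 1786 and 751. With the same number of peaks, 0 loci and 0 regions were called over both models or between models, and 0 regions in CT26. Of all 16060 loci, 98 were then called over both models and 94 between models. Of all 47896 regions, 657 were higher and 364 lower over both, 485 and 765 between models, and 420 and 188 in CT26. With the gene body only, 2 kb flanks or 50 kb flanks, 0 loci were called over both models, and 2 where at least 50% of the peak had to lie in the locus. In that order, 261, 218, 474 and 242 of all loci were higher and 160, 159, 247 and 140 lower, of 15359, 15821, 18330 and 16798 tested. The 2 kb flanks gave 5 calls between models, against 3691 higher and 774 lower of all 15821 loci.

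Over both models, the log2 change turned round without scaling for Sftpa1 (0.0316), Abca3 (0.139), Slc34a2 (0.175) and Muc1 (0.00496), and with median scaling for Slc34a2 (0.00448). With −log10 q of at least 5 it did so for Sftpc (0.0598), Sftpb (0.0648, and 0.368 in CT26), Sftpd (-0.0478), Slc34a2 (0.239) and Lpcat1 (-0.135, with -0.00748 in CT26 and -0.263 in 4T1). With 2 kb flanks it turned for Sftpc (0.0496), Sftpd (-0.0728) and Slc34a2 (0.0485), with 50 kb flanks for Sftpd (-0.12) and Lamp3 (-0.252), and with the gene body only for Lamp3 (-0.0455) and Slc34a2 (0.386). With the same number of peaks it turned for Lpcat1 (-0.187, with -0.161 in CT26 and -0.213 in 4T1). Between models it turned for Lpcat1 (0.256) and Lamp3 (0.0803) with the same number of peaks, and for Lamp3 (0.198, limma adjusted p = 0.0282) under the stricter q. Single regions that turned over both models included the region beyond Sftpb (0.987) under the stricter q and the Abca3 start (0.00202) without scaling. This is not a full list of such regions.

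Leaving out each library in turn gave 0 to 2 loci called over both models, and 0 to 1 regions in 4T1, 0 to 2 in CT26 and 0 to 10 over both. In these fits 80 to 258 of all loci were called higher and 10 to 120 lower over both models. Of all regions, 273 to 3604 were called higher and 67 to 3759 lower over both. In 4T1, 0 to 1875 regions were called higher and 0 to 188 lower, and in CT26 829 to 1775 and 226 to 603. The log2 change over both models then ranged from -0.073 to 0.201 for Sftpd, -0.0493 to 0.0628 for Lamp3 and -0.103 to 0.0125 for Slc34a2.

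The labels do not say whether replicate numbers mark pairs. Deviations from the group means of same-numbered niche and distal libraries of a model correlated at -0.0441 to 0.0892 (6 pairs). Libraries of different groups and numbers correlated at -0.1224 to 0.114 (36 pairs). These values cannot tell whether same-numbered libraries came from the same lungs. A replicate block left the Sftpb call over both models (log2 change -0.36, limma adjusted p = 0.0439), gave 0 regions in CT26, 6 over both and 16 between models, and changed no count of member loci. Of all 64948 regions, 865 were then higher and 201 lower in CT26, 2749 and 2522 over both, and 10147 and 5586 between models.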
